A study of Triticum aestivum with 15 samples.

Results

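The short arms of wheat chromosomes 1B and 1D were described as loci of the transcript catalogue that the authors assembled from flag leaves. A locus was a member when it ended below 150 Mb on the first part of chromosome 1B or 1D, carried a gene name of the reference annotation and reached a summed FPKM of 1 in 2 or more of the 15 libraries. FPKM counts fragments per kilobase of transcript, scaled to the mapped fragments of a library. Of 2530 named loci in these stretches, 818 were members, 341 of 1229 on 1B and 477 of 1301 on 1D, and the whole catalogue held 122017 loci. The limit of 150 Mb stands in for the arm, and the centromere was not located here. The libraries came from flag leaves of the hard red winter wheat cultivars TAM112 and TAM111, which share part of their pedigree. Leaves were taken 79 days after transplanting, at heading (HD), and at day 100, in the middle of grain filling (GF), from pots kept short of water since jointing (dry) or well watered (wet). TAM112 had 2 libraries each at HD dry, HD wet, GF dry and GF wet, and TAM111 had 2, 1, 2 and 2 libraries in the same order of conditions. Each library pooled leaves of 4 plants of 1 replicate, so the p-values measure the spread between such pools.

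Bread wheat holds A, B and D genomes, and most of its genes therefore exist as homoeologous copies on chromosomes of the same group. The short arms of group 1 are known for clusters of seed storage protein genes and of disease resistance genes. TAM112 carries the translocation 1AL.1RS, in which the short arm of rye chromosome 1R stands in place of wheat 1AS, so that 1B and 1D hold its remaining wheat copies of these genes. The deposited reads had been aligned to a wheat genome. Fragments of a rye gene that aligned to 1B or 1D and fragments of the wheat gene itself cannot be told apart in these values, nor can fewer cells of a type and less RNA per cell.

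In each library the members were measured at low to moderate levels, with a median of their mean FPKM of 2.88 and a median of 17 implied fragments. Implied fragments are the numbers that the confidence bounds around the deposited FPKM values give back, and the depth estimated from them was between 5.40 M and 7.51 M fragments per library. Of the 818 members, 627 were above 0 in all 15 libraries and 382 were at 1 FPKM or more in all of them. Replicates of 1 group correlated with r between 0.887 and 0.911 over the members on the scale of log2(FPKM + 1). The check on chromosome 1A, the translocated arm, set 2 TAM111 libraries apart. Below 150 Mb on 1A, the median deviation from the locus mean was −0.66 to −0.57 in the 8 TAM112 libraries and 0.80 to 1.06 in 5 TAM111 libraries, but 0.20 and 0.27 in TAM111 HD dry replicate 1 and TAM111 GF wet replicate 1. Results are given with all libraries, and also without these 2 intermediate ones where this is said. Gene names of leaf markers could not be looked up, since 0 of the 845 gene names of the members matched the gene table at hand. For the same reason most loci are given by locus and gene name, without a function.

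The question behind the comparison of the cultivars is which copies on 1B and 1D were higher where the rye arm replaces those of 1A. Across the members the levels in TAM112 were higher by a small amount. The difference between TAM112 and TAM111, averaged over the 4 conditions of stage and treatment, had a median of 0.12 on the log2(FPKM + 1) scale over the 799 members tested, 0.13 for the 332 loci on 1B and 0.11 for the 467 on 1D. It was positive at 536 of the 799 loci, or 67.1%, beside 48.5% and a median of −0.01 over all 49025 loci tested. These medians describe loci that passed the filter on low values, and 19 members were not tested because in at least 1 library the entry overlapping them had been assigned to another locus and none to them. At an unadjusted p below 0.05, 194 of the 799 members passed, 150 higher and 44 lower, beside 14.3% of all loci. On the remainder of chromosomes 1B and 1D, the median over 2845 loci was 0.02 and 53.8% were positive.

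The ends of 1B and 1D ranked first and second by this median among 21 chromosome ends that were cut at the same 150 Mb. The other ends, 1A aside, had medians between −0.07 and 0.02, with between 42.0% and 52.9% of loci positive. The end of 1A had a median of −1.30, and 3.55% of its 366 loci were positive. Both ends also held the first and second ranks in each of the 4 single conditions. Their medians for 1B and 1D were 0.18 and 0.19 at HD dry, 0.12 and 0.09 at HD wet, 0.18 and 0.11 at GF dry, and 0.04 and 0.07 at GF wet. Leaving out the 2 intermediate TAM111 libraries gave 0.16 on 1B and 0.13 on 1D for the mean over conditions, and 0.12 and 0.10 at GF wet.

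**Figure D1:**
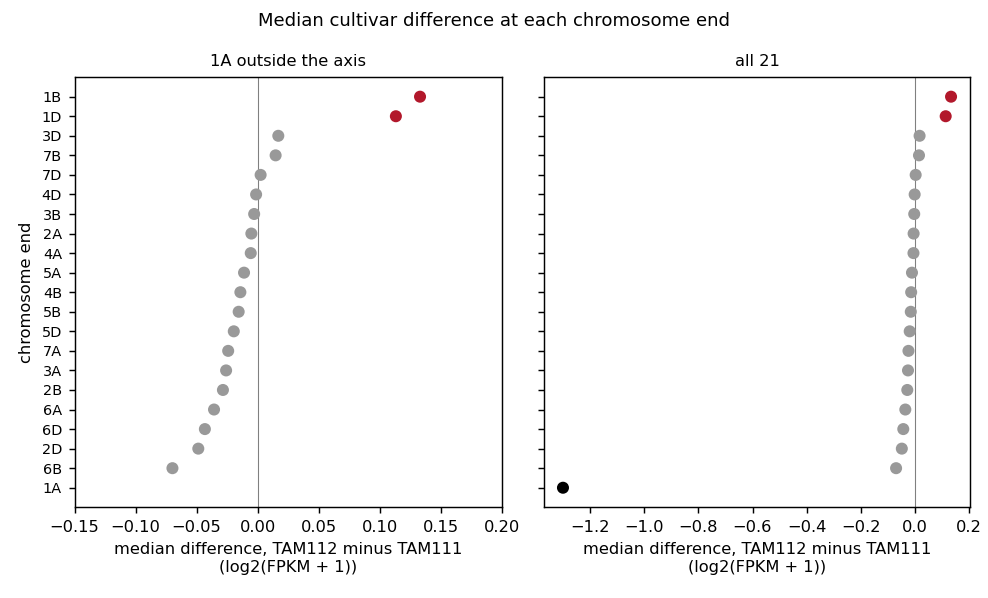
Median difference between TAM112 and TAM111 (x axis, log2(FPKM + 1), mean over 4 conditions) at the end of each of the 21 chromosomes (y axis), with 1A outside the axis in the left panel and included in the right panel. The ends of 1B and 1D, in red, are at 0.13 and 0.11, the other ends in grey lie between −0.07 and 0.02, and 1A, in black, is at −1.30.

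The same shift was seen as a level per library, where its relation to the spread between libraries depended on the scaling. The median deviation of the members from their locus means was 0.03 ± 0.08 in TAM112 (SD, n = 8) and −0.10 ± 0.06 in TAM111 (SD, n = 7). It lay between −0.08 and 0.12 in TAM112 and between −0.18 and −0.03 in TAM111, so the cultivars overlapped in the deposited values. With median-ratio scaling the ranges were −0.01 to 0.06 in TAM112 and −0.17 to −0.02 in TAM111, and with quantile normalization 0.02 to 0.06 in TAM112 and −0.16 to 0.00 in TAM111, with no overlap in either. The cultivars overlapped on implied fragments scaled to the library total, at −0.05 to 0.15 in TAM112 and −0.14 to 0.001 in TAM111. They also overlapped with a pseudocount of 0.1 in place of 1, at −0.04 to 0.20 in TAM112 and −0.21 to 0.004 in TAM111. In the deposited values the highest were those of the TAM112 GF dry libraries, at 0.11 and 0.12. The lowest value of TAM112 was that of GF wet replicate 1, and the lowest of TAM111 that of HD dry replicate 2. Averaged over the 4 conditions the difference was 0.13 in the deposited values, 0.14 after median-ratio scaling and 0.16 after quantile normalization, and without the 2 intermediate libraries it was 0.15.

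**Figure D2:**
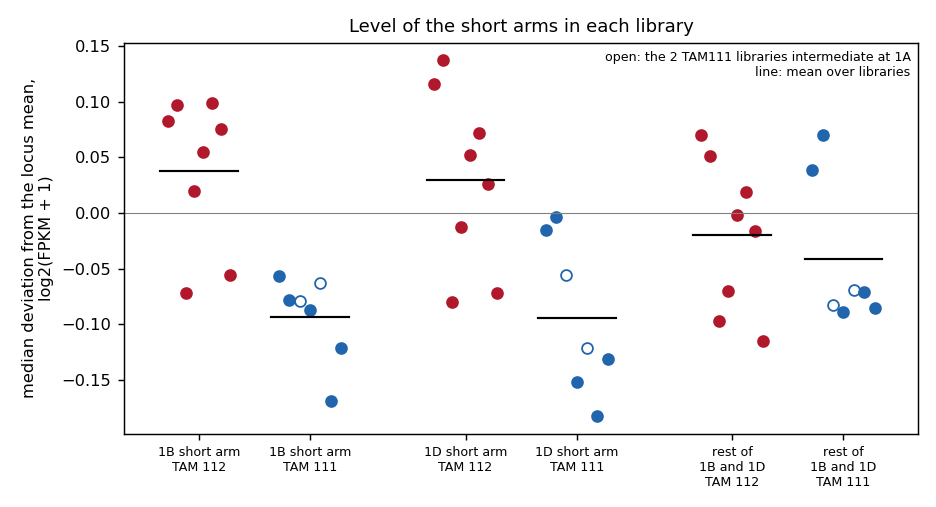
Median deviation from the locus mean (y axis, log2(FPKM + 1)) in each library for the loci of the 1B short arm, the 1D short arm and the remainder of both chromosomes, with TAM112 in red left of TAM111 in blue and lines at the means over libraries. Open circles are the 2 TAM111 libraries that are intermediate at 1A. Over both arms the TAM112 libraries lie between −0.08 and 0.12 and the TAM111 libraries between −0.18 and −0.03.

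On the log2(FPKM + 1) scale, which understates the change of low loci, the shift was larger at loci with higher levels. For the medians, the split cannot tell a smaller change at low loci from this effect of the scale. Split at mean FPKM of 1.62 and 5.33, the low, middle and high members had medians of 0.05, 0.13 and 0.23, with 57.9%, 66.5% and 76.8% positive. With the same limits, the loci on the remainder of 1B and 1D had medians of 0.01, 0.03 and 0.02. Along the arms the median was positive in every stretch of 25 Mb. It was lowest, at 0.02, between 125 and 150 Mb on 1B and highest, at 0.19, between 125 and 150 Mb on 1D.

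Large differences between the cultivars were few and went both ways. A locus is called here when the Benjamini-Hochberg adjusted p of limma over all 49025 loci was below 0.05 and the difference was at least 1 on the log2(FPKM + 1) scale. In the mean over conditions 20 members were called, 10 higher and 10 lower in TAM112. That is 2.50% of the members, beside 2.9% of all loci called, 0.987% higher and 1.91% lower. Among all members tested, the TAM112 and TAM111 libraries did not overlap at 15, 7 higher and 8 lower, which is 1.88% beside 1.67% of all loci. Of the 20 called, 9 were among these, 3 higher and 6 lower. Without the 2 intermediate libraries 27 members were called, 14 higher and 13 lower, beside 3.58% of all loci, and all 20 were among them. The 8 TAM112 and the 5 other TAM111 libraries then did not overlap at 40 members, or 5.01%, beside 3.13% of all loci.

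**Figure D3:**
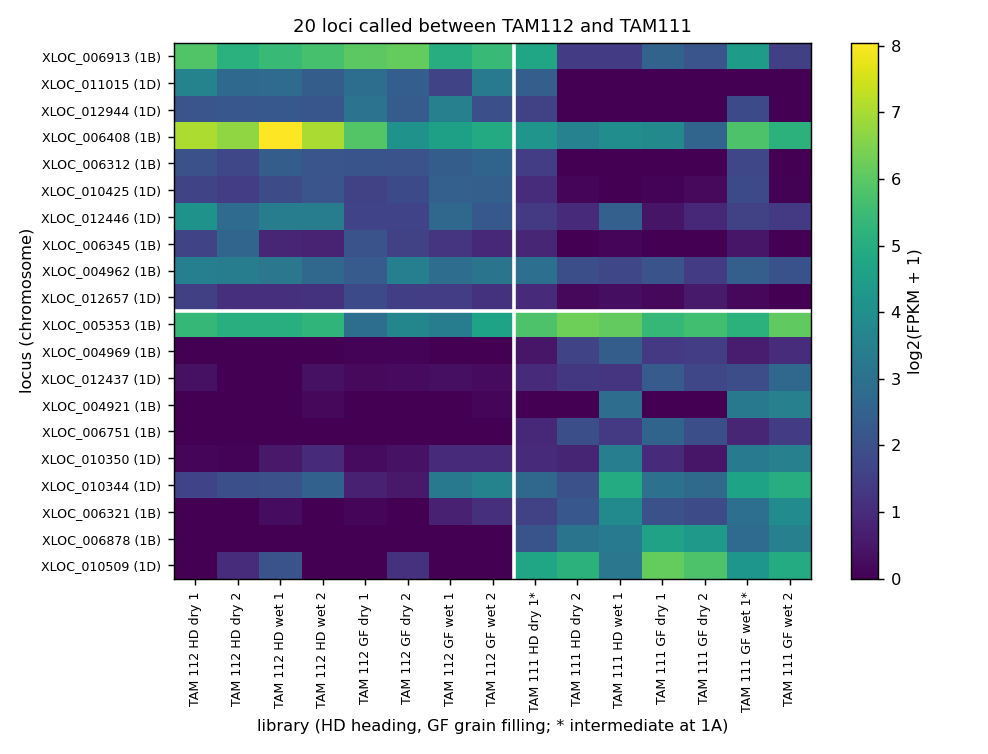
Level (colour, log2(FPKM + 1)) of the 20 members called between the cultivars, 1 row per locus ordered by the difference, 1 column per library with the 8 TAM112 libraries left of the 7 TAM111 libraries. The 10 upper loci were higher in TAM112 and the 10 lower loci were lower. Stars mark the 2 TAM111 libraries that are intermediate at 1A, of which HD dry replicate 1 was above replicate 2 at all 10 upper loci and GF wet replicate 1 above replicate 2 at 9 of them.

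The largest called rise in TAM112 was that of XLOC_006913 (TraesCS1B01G118400, RefSeq v1.0 chr1B:139069444-139073263, minus strand). Its FPKM had a lowest value of 31.6, a median of 46.8 and a highest value of 69.0 in TAM112, against 1.68, 3.32 and 26.3 in TAM111. The cultivars did not overlap, and the 2 TAM111 libraries above 5 FPKM were the intermediate ones, at 26.3 (HD dry replicate 1) and 20.4 (GF wet replicate 1). The difference was 3.14 ± 0.56 on the log2 scale (SE, adjusted p = 0.013 by limma), and 3.92 ± 0.18 without these 2 libraries (adjusted p = 4e-05 by limma). In implied fragments the locus had 1521 over the 8 TAM112 libraries and 233 over the 7 TAM111 libraries.

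XLOC_012944 (TraesCS1D01G114400, chr1D:110504571-110519440) and XLOC_012657 (TraesCS1D01G061100, chr1D:41506591-41510920) were the other loci that were called higher with no overlap. XLOC_012944 ranged from 2.92 to 10.2 FPKM with a median of 3.61 in TAM112, and was read as 0 in 5 TAM111 libraries and at 2.0 and 2.53 in the intermediate 2. Its difference was 2.02 ± 0.37 (adjusted p = 0.0148 by limma) and rested on 44.3 implied fragments in TAM112 and 4.99 in TAM111. Recomputed from implied fragments scaled to the library total, a check added after the values were seen, it was 0.78 (adjusted p = 0.0267 by limma). The adjusted p still passed, but the difference missed the minimum of 1. With 1 added before the logarithm, fragments this few leave little room to reach that minimum, so the lost call decides nothing. XLOC_012657 had a lowest, median and highest value of 1.12, 1.5 and 2.49 FPKM in TAM112, against 0, 0.132 and 0.967 in TAM111. The difference was 1.02 ± 0.17 (adjusted p = 0.00837 by limma), at the limit of the call, which was kept in 8 of 14 fits that left out 1 library. XLOC_012657 passed the filter only through TAM112 libraries, so this adjusted p is no independent support.

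At the other 7 loci called higher, TAM112 and TAM111 overlapped through 1 or more TAM111 libraries. XLOC_006312 (TraesCS1B01G002900), chosen after its values were seen, shows the pattern. It had 2.26, 3.33 and 5.06 FPKM as lowest, median and highest value in TAM112, was read as 0 in 5 TAM111 libraries, and had 1.76 and 2.31 FPKM in the intermediate libraries HD dry replicate 1 and GF wet replicate 1. Its difference was 1.77 with all libraries and 2.17 without those 2. XLOC_010425 (TraesCS1D01G017600), likewise chosen after its values were seen, had 1.74, 2.55 and 4.47 FPKM in TAM112, against at most 0.143 in 5 TAM111 libraries and 1.02 and 2.50 in the intermediate ones. Without these libraries, the cultivars did not overlap at 8 of the 10 loci called higher. Over the 10 loci called higher, HD dry replicate 1 of TAM111 was above its replicate 2 at all 10, and GF wet replicate 1 was above its replicate 2 at 9 with 1 equal at 0. Why these libraries lie between the cultivars was not tested.

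Among the 10 loci called lower in TAM112, some were at or near 0 in all of its libraries. XLOC_006878 (TraesCS1B01G110800, chr1B:125849001-125850325) was read as 0 in all 8 TAM112 libraries, and had a lowest, median and highest value of 3.26, 9.01 and 24.1 FPKM in TAM111. It was the one member at 1 FPKM or more in every library of one cultivar and no higher than 0.1 FPKM throughout the other cultivar when all libraries were counted. Without the 2 intermediate libraries 7 members met this. They were XLOC_006312, XLOC_005071 (left out of the tests), XLOC_012944 and XLOC_011015 in TAM112, and XLOC_004969, XLOC_006751 and XLOC_006878 in TAM111. The share of all loci that met this rule was not computed here, so the counts cannot show whether these arms are unusual. The difference of XLOC_006878 was −3.39 ± 0.18 (adjusted p = 1.15e-05 by limma), with 162 implied fragments in TAM111. XLOC_006751 (TraesCS1B01G091100, chr1B:92324939-92326955) was likewise at 0 throughout TAM112, against 0.839 to 5.04 FPKM in TAM111, with a difference of −1.55 ± 0.19 (adjusted p = 0.00156 by limma). In both cases the group at 0 allows no fold, so differences of log2(FPKM + 1) are given. Both loci passed the filter only through TAM111 libraries, so their adjusted p values are no independent support.

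XLOC_010509 (TraesCS1D01G034800, chr1D:15321569-15322191) had the most negative difference, −4.15 ± 0.35 (adjusted p = 0.000151 by limma). It was read as 0 in 5 TAM112 libraries and at 1.02, 3.15 and 1.2 FPKM in the others, against a lowest, median and highest value of 8.12, 30.1 and 70.1 FPKM in TAM111. XLOC_012437 (TraesCS1D01G018100, chr1D:7905656-7907090) was at most 0.297 FPKM in TAM112, against 0.999 to 5.57 FPKM in TAM111, and XLOC_004969 (TraesCS1B01G016400, chr1B:7989121-7995603) was at most 0.0508 FPKM in TAM112, against 0.395 to 4.17 FPKM in TAM111. Their differences were −1.46 ± 0.17 and −1.40 ± 0.18 (adjusted p = 0.00135 and 0.00247 by limma). XLOC_012437 and XLOC_004969 passed the filter only through TAM111 libraries, so these adjusted p values are no independent support.

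Of the 10 loci called lower, XLOC_006321 and XLOC_010350 have a named product. XLOC_010350, a receptor-like kinase on 1D whose values are given with its dry response, had a difference of −1.58 ± 0.13 (adjusted p = 0.000154 by limma). No TAM112 library of this kinase reached 1 FPKM, so it passed the filter only through TAM111. XLOC_006321 (TraesCS1B01G004100, chr1B:2354576-2357674, minus strand) is annotated as an SnTox1 sensitivity protein. Such proteins are wall-associated kinases through which wheat recognises the toxin SnTox1 of the leaf blotch fungus Parastagonospora nodorum. In TAM112 its FPKM was 0 and 0 at HD dry, 0.206 and 0 at HD wet, 0.0751 and 0 at GF dry, and 0.653 and 1.10 at GF wet. In TAM111 it was 1.96 and 3.53 at HD dry, 13.5 in the HD wet library, 2.99 and 2.63 at GF dry, and 6.70 and 13.7 at GF wet. Every TAM111 library was above every TAM112 library, and wet libraries were above dry ones within each stage of TAM111. The difference between the cultivars was −2.50 ± 0.18 (adjusted p = 5.28e-05 by limma), and this locus was called lower in all 4 single conditions. Its TAM112 libraries alone would not have passed the filter, so this adjusted p is no fully independent support.

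Within single conditions few members were called, and with all libraries most of them were lower in TAM112, as were most of all loci called. This split of the members did not hold at GF dry under every setting. At HD dry 4 members were called, 1 higher and 3 lower, beside 0.636% of all loci, 104 higher and 208 lower. At HD wet, where TAM111 has 1 library, 8 were called and all were lower, beside 0.834% of all loci, 0.732% lower. At GF dry 1 was called higher and 7 lower, beside 1.7% of all loci, 252 higher and 583 lower. At GF wet 6 were called, all lower, beside 0.802% of all loci, 0.651% lower. At GF dry the split was 14 higher and 3 lower without TAM112 GF dry replicate 2, and 11 higher and 9 lower on implied fragments scaled to the library total. The total there was 5 without TAM112 GF dry replicate 1 or without TAM111 GF dry replicate 1. At HD wet it was 4 without TAM112 HD wet replicate 1, and at HD dry it was 1 without TAM112 HD dry replicate 1 or TAM111 HD dry replicate 2, and 2 without any of 6 other libraries. With all libraries these counts were 0.501%, 1.0%, 1.0% and 0.751% of the members.

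The loci called higher in a single condition rested on little. XLOC_012446 (TraesCS1D01G019600) had 16.1 and 6.08 FPKM at HD dry in TAM112, against 1.56 and 0.991 FPKM in TAM111, a difference of 2.29 ± 0.39 (adjusted p = 0.036 by limma). This call was kept in 2 of 15 fits that left out 1 library, and the adjusted p was 0.0932 by limma without both intermediate libraries. XLOC_010977 (TraesCS1D01G119900) had 5.31 and 2.92 FPKM at GF dry in TAM112 and was read as 0 in the other 13 libraries. It passed the filter through those GF dry libraries alone, which are also the ones tested as high. Its 2 values came from 2.99 implied fragments in all, and the call was lost on implied fragments scaled to the library total, where the adjusted p was 0.31 by limma. Without the 2 intermediate libraries more members were called higher in each condition, and more were called lower except at HD wet. In the mean over conditions the share of all loci called rose too. Whether the rise in single conditions was particular to the arms was not tested.

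The second question was how the members responded to the dry treatment at each stage. At heading the response on the arms was small. In TAM112 at HD 2 members were called, both higher under dry, beside 0.443% of all loci, 0.306% higher, and the median dry–wet difference was 0.07 beside 0.04 over all loci, and it was 0.00 after median-ratio scaling and −0.01 after quantile normalization. XLOC_010981 (TraesCS1D01G121000) had 13 and 8.03 FPKM at HD dry and 3.47 and 3.36 FPKM at HD wet, and XLOC_006887 (TraesCS1B01G112000) had 2.80 and 3.04 FPKM at HD dry and 0.578 and 0.770 FPKM at HD wet. Their dry–wet differences were 1.35 ± 0.23 and 1.23 ± 0.20 (adjusted p = 0.0471 and 0.0356 by limma). XLOC_010981 kept its call in 2 and XLOC_006887 in 9 of 15 fits that left out 1 library. Without TAM112 HD wet replicate 1 or 2 the calls were 2 and 3 members, all lower under dry and neither of these loci among them. Without TAM112 HD dry replicate 1 the call was 1 lower locus, without replicate 2 it was 1 higher, without either TAM111 HD dry library there was none, and without either TAM111 GF dry library 1 higher. Which members were called at heading in TAM112, and whether they were higher or lower, thus rested on single libraries. The differences of these 2 loci stayed positive in all 15 fits, at 1.03 to 1.67 for XLOC_010981 and 1.145 to 1.31 for XLOC_006887. XLOC_010981 was also called higher under dry in TAM112 at GF, by 1.03 ± 0.23 (adjusted p = 0.0306 by limma).

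In TAM111 at HD 5 members were called and all 5 were lower under dry, beside 0.49% of all loci, 0.43% lower, with the single HD wet library on the other side of each difference. XLOC_010344 spans 3 gene names at the tip of 1D (TraesCS1D01G001500, TraesCS1D01G001700 and TraesCS1D01G001800, chr1D:392346-463057), and its product is listed as an unnamed protein. It had 5.55 and 2.97 FPKM at HD dry and 29.7 FPKM at HD wet, a difference of −2.59 ± 0.37 (adjusted p = 0.0232 by limma). XLOC_010350 (TraesCS1D01G002900, chr1D:647425-651036) encodes a leucine-rich repeat receptor-like protein kinase, a class of membrane receptors with roles in defence and development. It had 0.942 and 0.767 FPKM at HD dry and 9.84 FPKM at HD wet, a difference of −2.55 ± 0.31 (adjusted p = 0.00909 by limma).

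The other 3 were less even in the fragments behind them. XLOC_012442 (TraesCS1D01G018700) had 0 and 0.261 FPKM at HD dry and 5.75 FPKM at HD wet, from 30.3 implied fragments in the wet library. XLOC_004921 (TraesCS1B01G006700) was read as 0 in both HD dry libraries and at 6.30 FPKM, from 7 implied fragments, in the HD wet library. XLOC_006786 (TraesCS1B01G097800) had the most negative value, −2.95 ± 0.36 (adjusted p = 0.00952 by limma), with 2.50 and 1.85 FPKM at HD dry and 23.4 FPKM at HD wet, but its implied fragments were 21.1 and 18.8 in the dry libraries and 31.9 in the wet library. On implied fragments scaled to the library total its difference was −0.42 and not called (adjusted p = 0.886 by limma). Of these 5 loci, 4 lay in the first 10 Mb of their arm, where 108 of the 799 tested members are. Without HD dry replicate 2 of TAM111 the count was 3, and without both intermediate libraries 7 members were called, 2 higher and 5 lower.

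At grain filling more members responded, and in TAM112 more of them were higher than lower under dry. In TAM112 at GF 46 members were called, 37 higher and 9 lower under dry. This is 5.76% of the members, beside 5.88% of all loci, 4.05% higher and 1.83% lower. The lean to higher was smaller with other scalings, at 23 higher and 12 lower with median-ratio scaling and 21 higher and 15 lower with quantile normalization. In TAM111 at GF 20 were called, 6 higher and 14 lower, or 2.50% beside 2.84% of all loci, 1.71% higher and 1.12% lower. The count for TAM112 was 15 without GF dry replicate 1 and 18 without either GF wet library, and that for TAM111 was 8 (4 higher, 4 lower) and 9 (4 higher, 5 lower) without GF dry replicate 1 and 2, and 7 without GF wet replicate 1, one of the intermediate libraries. Without both intermediate libraries 32 members were called in TAM112, 23 higher and 9 lower, and 9 in TAM111, 1 higher and 8 lower. The median dry–wet difference was 0.12 in TAM112 and 0.06 in TAM111 over the members, beside 0.07 and 0.10 over all loci, and its sign depended on the scaling. With median-ratio scaling it was 0.02 in TAM112 and −0.05 in TAM111, and with quantile normalization −0.02 and −0.07 in the same order, where the median over all loci was 0.00 in each.

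**Figure D4:**
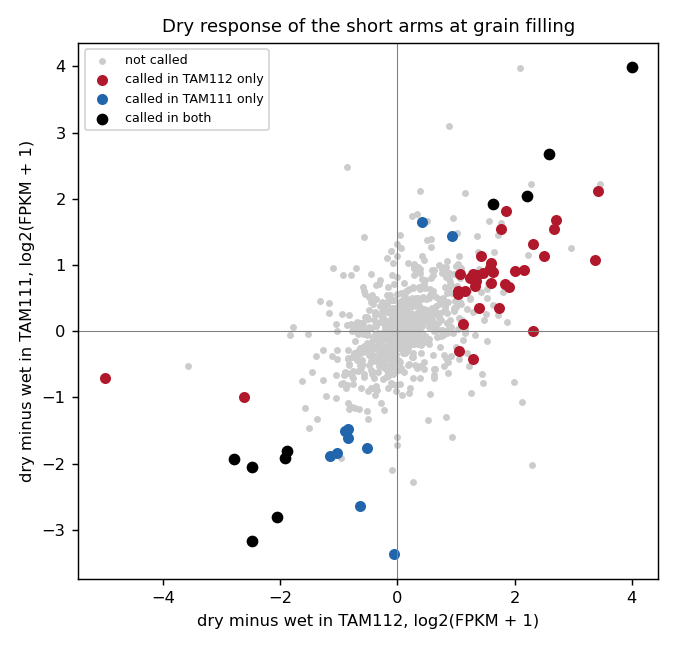
Dry minus wet at GF in TAM112 (x axis) and in TAM111 (y axis), both on the log2(FPKM + 1) scale, for the tested members except XLOC_006351, which lies at −11.86 on the x axis. Colours mark members called in both cultivars (10), in TAM112 and not TAM111 (36) and in TAM111 and not TAM112 (10). The called loci lie mostly in the quadrants where both cultivars moved the same way.

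With all libraries the 2 cultivars shared 10 of these loci, which is 21.7% of the calls in TAM112 and 50.0% of those in TAM111. All 10 moved the same way in both, 4 higher and 6 lower under dry. Of the 36 members called in TAM112 and not in TAM111, 30 were higher under dry in both and 3 lower in both. Of the 10 called in TAM111 and not in TAM112, 2 were higher and 8 lower in both. A call in one cultivar and not in the other is thus no test of a difference between them. That difference, tested directly, was called at 2 members at GF, beside 0.235% of all loci, and at 1 member at HD, beside 0.153% of all loci.

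The 4 loci higher under dry in both cultivars all lie on 1D. For TAM111 the wet side of each difference includes the intermediate GF wet replicate 1. Most of these 4 calls in TAM111 were not kept without the 2 intermediate libraries. XLOC_012911 (TraesCS1D01G108300, chr1D:101093890-101095849) had 86.5 and 60.3 FPKM at GF dry and 26.6 and 19.3 FPKM at GF wet in TAM112, with 63.5 and 110 FPKM at GF dry and 20.9 and 21.8 FPKM at GF wet in TAM111. Dry and wet libraries did not overlap in either cultivar, and the differences were 1.63 ± 0.33 and 1.92 ± 0.33 (adjusted p = 0.0227 and 0.0174 by limma). XLOC_013009 (TraesCS1D01G126500, chr1D:137966816-137969724) had 5.24 and 3.11 FPKM at GF dry and 0.078 and 0.104 FPKM at GF wet in TAM112, with 4.05 and 2.87 FPKM at GF dry and 0.163 and 0 FPKM at GF wet in TAM111. The low dry values at heading, between 0.603 and 1.16 FPKM over both cultivars, set the GF dry libraries apart from every other library of this locus.

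XLOC_012797 (TraesCS1D01G086300, chr1D:70571143-70571682) had 17.9 and 18.1 FPKM at GF dry and 3.51 and 1.23 FPKM at GF wet in TAM112, with 17.0 and 12.2 FPKM at GF dry and 0.642 and 2.53 FPKM at GF wet in TAM111. Its differences were 2.59 ± 0.47 and 2.68 ± 0.47 (adjusted p = 0.0142 and 0.018 by limma). XLOC_010962 (TraesCS1D01G116800, chr1D:112633349-112634027) had the highest differences, 4.0 ± 0.57 and 3.99 ± 0.57 (adjusted p = 0.0056 and 0.00805 by limma). It had 12.9 and 17.5 FPKM at GF dry in TAM112 and was read as 0 in both GF wet libraries, while TAM111 had 9.40 and 36.8 FPKM at GF dry and 0 and 0.556 FPKM at GF wet.

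Among the loci called higher under dry in TAM112 and not in TAM111, XLOC_012693 (TraesCS1D01G067800, chr1D:49585773-49593127) was measured well. It had 66.4 and 35.5 FPKM at GF dry and 8.77 and 4.97 FPKM at GF wet in TAM112, a difference of 2.70 ± 0.42 (adjusted p = 0.00793 by limma). In TAM111 it had 24.0 and 15.1 FPKM at GF dry and 5.13 and 5.44 FPKM at GF wet, a difference of 1.68 that was not called (adjusted p = 0.0722 by limma). Dry libraries were thus above wet ones in both cultivars at this stage. XLOC_005458 (TraesCS1B01G103700, chr1B:113563905-113565002) is annotated as a dioxygenase like BX6, an enzyme known from maize for its part in the synthesis of benzoxazinoids, which protect against insects and pathogens. It had 10.6 and 12.1 FPKM at GF dry and 1.16 and 1.18 FPKM at GF wet in TAM112, a difference of 2.51 ± 0.47 (adjusted p = 0.0163 by limma). In TAM111 it had 5.79 and 3.63 FPKM at GF dry and 3.20 and 0.561 FPKM at GF wet, which was not called (adjusted p = 0.271 by limma).

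XLOC_012782 and XLOC_006386 were also among the 4 highest differences in TAM112, but with less behind them. XLOC_012782 (TraesCS1D01G083900 and TraesCS1D01G084000) had 815 and 398 FPKM at GF dry and 88.1 and 30.7 FPKM at GF wet, and its call was lost on implied fragments scaled to the library total (adjusted p = 0.0618 by limma) and kept in 3 of 15 fits that left out 1 library. XLOC_006386 (TraesCS1B01G018100) had 10.9 and 8.04 FPKM at GF dry from 4.99 implied fragments, and was read as 0 at GF wet.

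The loci that were lower under dry at GF included those at the tips of both arms that were lower at heading in TAM111. XLOC_010344 had 0.662 and 0.464 FPKM at GF dry and 8.60 and 11 FPKM at GF wet in TAM112, with 7.18 and 5.94 FPKM at GF dry and 24.5 and 31.5 FPKM at GF wet in TAM111. Its dry–wet differences were −2.78 ± 0.30 and −1.93 ± 0.30 (adjusted p = 0.00203 and 0.0115 by limma), and it was also called lower in TAM112 than in TAM111 in the mean over conditions, by −1.74 ± 0.16 (adjusted p = 0.000296 by limma). XLOC_010350, the receptor-like kinase, had 0.178 and 0.315 FPKM at GF dry and 0.927 and 0.938 FPKM at GF wet in TAM112, with 1.01 and 0.402 FPKM at GF dry and 8.65 and 10.4 FPKM at GF wet in TAM111. It was called in TAM111 (−2.65 ± 0.25, adjusted p = 0.00122 by limma) and not in TAM112 (−0.63 ± 0.25, adjusted p = 0.183 by limma), although dry libraries were below wet ones in both. The difference between these responses was 2.01 ± 0.35 and did not pass (adjusted p = 0.0787 by limma).

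**Figure D5:**
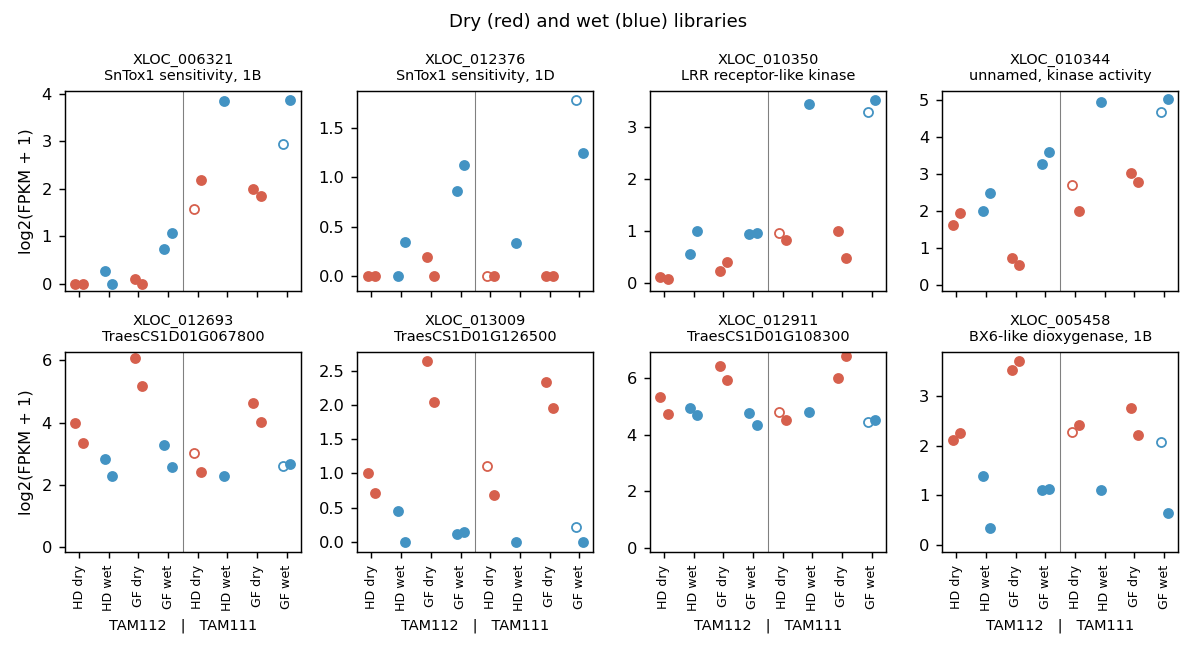
Level (y axis, log2(FPKM + 1)) of 8 members in each library, with dry libraries in red left of wet libraries in blue at HD and GF, TAM112 left of TAM111. Open circles are the 2 TAM111 libraries that are intermediate at 1A. The upper 4 loci, which include the SnTox1 sensitivity and receptor-like kinase genes, lie lower in dry than in wet libraries of TAM111 at GF, and the lower 4 lie higher in dry than in wet libraries of both cultivars at GF.

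Both SnTox1 sensitivity genes were lower under dry in TAM111 at GF. XLOC_006321 on 1B, given above, had a dry–wet difference of −1.48 ± 0.33 (adjusted p = 0.0491 by limma). XLOC_012376 on 1D (TraesCS1D01G005100, chr1D:2459101-2461044) was read as 0 in both GF dry libraries and had 2.45 and 1.37 FPKM at GF wet, a difference of −1.51 ± 0.26 (adjusted p = 0.0174 by limma). In TAM112 it had 0.141 and 0 FPKM at GF dry and 0.813 and 1.19 FPKM at GF wet, which was not called (adjusted p = 0.079 by limma). It was not called between the cultivars, with a mean difference of −0.15 ± 0.14 (adjusted p = 0.727 by limma).

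XLOC_006666 and XLOC_010599 were lower under dry at GF in both cultivars. XLOC_006666 (TraesCS1B01G073400 and TraesCS1B01G073500, chr1B:57431806-57435962) had 2.45 and 6.42 FPKM at GF dry and 29.8 and 24.6 FPKM at GF wet in TAM112, with 2.44 and 2.32 FPKM at GF dry and 36.8 and 23.5 FPKM at GF wet in TAM111. Its differences were −2.47 ± 0.43 and −3.17 ± 0.43 (adjusted p = 0.0117 and 0.00584 by limma). At heading the same locus had 35.3 and 20.5 FPKM at HD dry and 26.7 FPKM at HD wet in TAM111, so the low values belonged to GF dry. XLOC_010599 (TraesCS1D01G050400) was read as 0 in both GF dry libraries of TAM112 and at 0 and 0.121 FPKM in those of TAM111, against 5.42 and 1.67 FPKM at GF wet in TAM112 and 8.04 and 5.08 FPKM in TAM111.

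The 3 further loci with the most negative differences in TAM112 at GF were measured unevenly. XLOC_006351 (TraesCS1B01G010000) was at 0 in both GF dry libraries and at 4614 and 2974 FPKM in the GF wet ones, values that rest on 22.8 and 14.0 implied fragments, and its call was kept in 3 of 15 fits that left out 1 library. It was at 0 in 9 of the 15 libraries and between 2844 and 4721 FPKM in the others, with both cultivars among each. XLOC_010363 (TraesCS1D01G005800) was at 0 in both GF dry libraries of TAM112 and at 41.2 and 23.0 FPKM at GF wet. XLOC_006340 (TraesCS1B01G008700 and TraesCS1B01G009200) had 0.325 and 0.356 FPKM at GF dry and 5.70 and 9.15 FPKM at GF wet in TAM112, a difference of −2.62 ± 0.57 (adjusted p = 0.0293 by limma). The same locus had 0.115 and 0.124 FPKM at HD dry and 5.47 and 6.06 FPKM at HD wet in TAM112, while TAM111 stayed at or below 0.308 FPKM except for 3.94 FPKM in the intermediate GF wet replicate 1.

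The first 10 Mb of the arms held a large share of the loci lower under dry in TAM111. Of the 14 called lower in TAM111 at GF, 7 lay there, as did 4 of 5 at HD, and these 4 are among the 7. The stretch of 10 Mb was not among the planned bins of 25 Mb. The tips of other chromosomes were not counted, so these shares cannot be called particular to these arms. In TAM112 at GF, 3 of the 37 loci higher under dry and 4 of the 9 lower lay there. In TAM111 the median dry–wet difference over the 108 tested members in these stretches was −0.08 at HD, with 58.3% negative, beside 0.00 and 47.6% from 10 to 150 Mb. At GF it was −0.01, with 50.0% negative, beside 0.06 and 43.7%.

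The other members with a product showed no called difference in any comparison. XLOC_006527, a disease resistance protein like RGA3 of the nucleotide-binding class on 1B, was between 1.02 and 2.44 FPKM in TAM112 and between 0.740 and 3.07 FPKM in TAM111. XLOC_010427, a rust resistance kinase like Lr10 on 1D, was between 5.44 and 16.1 FPKM in TAM112 and between 1.90 and 11.6 FPKM in TAM111. XLOC_010854 on 1D encodes 1-aminocyclopropane-1-carboxylate oxidase, the enzyme of the last step of ethylene synthesis. It had a lowest, median and highest value of 6.825, 16.6 and 30.7 FPKM in TAM112, against 6.06, 12.3 and 28.5 FPKM in TAM111.

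None of the tested members among the 4 with the highest mean FPKM on each arm was called between the cultivars. On 1D, XLOC_010625 (TraesCS1D01G053700) was between 107 and 226 FPKM in TAM112 and between 105 and 173 FPKM in TAM111, and XLOC_012885 (TraesCS1D01G102400) was between 101 and 208 FPKM in TAM112 and between 103 and 202 FPKM in TAM111. Their differences were 0.09 ± 0.09 and 0.00 ± 0.11 (adjusted p = 0.735 and 0.998 by limma). XLOC_012993 (TraesCS1D01G122800) was between 113 and 158 FPKM in TAM112 and lower, down to 66.4 FPKM, in 6 TAM111 libraries, with 511 FPKM from 165 implied fragments in the intermediate GF wet replicate 1.

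On 1B the loci with the highest mean levels varied more between libraries. XLOC_006534 (TraesCS1B01G045700) was between 251 and 483 FPKM in TAM112 and between 50.0 and 405 FPKM in TAM111, and XLOC_006412 (TraesCS1B01G022800) between 24.6 and 851 FPKM in TAM112 and between 39.4 and 621 FPKM in TAM111. XLOC_005071 (TraesCS1B01G035500, chr1B:16841840-16928532), one of the 19 members left out of the tests, was between 37.3 and 2745 FPKM in TAM112. In TAM111 it was read as 0 in 5 libraries and at 58.0 and 126 FPKM in the 2 intermediate ones, with at most 22.0 implied fragments in any library of either cultivar.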

How the data were processed

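RNA of flag leaves was sequenced in 15 libraries of 8 groups of cultivar, stage and treatment. The authors demultiplexed reads with bcl2fastq 1.7, trimmed them with Trimmomatic 0.38, aligned them to the wheat genome IWGSC RefSeq v1.0 with TopHat2 and assembled transcripts with Cufflinks, per the labels and the study's methods; versions of the last 2 tools are not given in the sources used here. The deposited values are FPKM per assembled entry and library, with confidence bounds, and the authors' merged catalogue gives the loci. Use of strand in counting is not stated, so overlapping genes, like near-identical homoeologous copies, may share reads.

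Entries were assigned to loci by gene name and then overlap (bedtools 2.31.1, Python 3.11.15, pandas 2.3.3) and FPKM summed per locus. Loci at 1 FPKM or more in at least 2 libraries were tested on log2(FPKM + 1), a scale that understates the change of low loci. A locus high in a single group can pass this filter through that group alone. Its adjusted p is then no independent support. One limma 3.58.1 model (R 4.3.3, trended variance, 8 group means, 7 residual degrees of freedom) was fitted to 49025 loci, with Benjamini-Hochberg adjustment per comparison. Calls needed an adjusted p below 0.05 and a difference of at least 1, and interactions the adjusted p alone. TAM111 HD wet has 1 library, whose spread is assumed to be that of the other groups. Fragments per entry were inferred from the confidence bounds, and between 90.6% and 91.5% of low values came out within 0.05 of a whole number. The code was tested on simulated data. The number of value columns left unmapped was 0.

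The members and lists were chosen with earlier results of these data known. Named loci were the called ones with the largest changes and no overlap between groups (10 higher and 6 lower for the mean over conditions, 2 and 1 for each single condition, 4 and 4 for each dry–wet comparison), up to 3 per interaction, those with a product in the study's tables, those restricted to 1 cultivar and the 4 with the highest mean FPKM on each arm. Alternatives were another pseudocount, filter, scaling, fold minimum and arm end, each library left out, both intermediate libraries left out, a replicate block, the compared groups alone, ambiguous loci kept, and, added after seeing the data, implied fragments scaled to the library total.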

Additional observations from a re-analysis of the deposited data

Results flagged for a closer look

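The dry–wet change differed between the cultivars at 2 members by the interaction test of limma. For XLOC_004921 (TraesCS1B01G006700) it was higher in TAM112 than in TAM111 by 2.78 at HD (adjusted p = 0.0203 by limma) and by 3.32 at GF (adjusted p = 0.00331 by limma), on the log2(FPKM + 1) scale. This locus was at most 0.137 FPKM in TAM112. In TAM111 it was read as 0 in every dry library, with 6.30 FPKM at HD wet and 8.43 and 10.4 FPKM at GF wet. For XLOC_010977 (TraesCS1D01G119900) the difference at GF was 2.31 (adjusted p = 0.0488 by limma), from 5.31 and 2.92 FPKM in the TAM112 GF dry libraries and 0 elsewhere. Both loci passed the filter only through the libraries where they were high, so these adjusted p values are no independent support. On implied fragments scaled to the library total the 3 values were 0.87, 1.34 and 0.35, with adjusted p of 0.766, 0.134 and 0.808 by limma.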

How the results depend on the processing

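The median cultivar difference over the members, averaged over the conditions, stayed positive in every fit run. With no filter, over 1418 loci, it was 0.04, beside 0.12 in the main fit. In single conditions it did not always stay above 0: with no filter it was 0.00 at HD wet and at GF wet. The median dry–wet differences of the members did not keep their sign: with quantile normalization they were −0.01 for TAM112 at HD, −0.02 for TAM112 at GF and −0.07 for TAM111 at GF, and with median-ratio scaling −0.05 for TAM111 at GF. The split of calls at GF dry turned from mostly lower to 14 higher and 3 lower without TAM112 GF dry replicate 2, and that of TAM112 at HD turned to 0 higher, with 2 and 3 lower, without HD wet replicate 1 and 2. Leaving out 1 library at a time gave arm differences of 0.12 to 0.15 for both arms together, 0.12 to 0.15 for 1B and 0.12 to 0.14 for 1D. It gave 18 to 23 members called for the mean over conditions, 1 to 6 at HD dry, 4 to 10 at HD wet, 5 to 17 at GF dry and 5 to 8 at GF wet. For dry against wet it gave 0 to 3 in TAM112 and 3 to 7 in TAM111 at HD, 15 to 48 in TAM112 and 7 to 20 in TAM111 at GF, and for the interactions 1 to 2 at HD and 1 to 3 at GF. Counts that moved by over 1.5 times under other settings follow, and the cause was not tested.

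For the mean over conditions the count was 31 with a pseudocount of 0.1, 12 with a filter of 8 libraries and 37 with no fold minimum. With the filter of 8 libraries, which tests fewer loci, it was 1 at HD dry, 2 at HD wet, 3 at GF dry, 2 at GF wet, 1 and 2 for TAM112 and TAM111 at HD, 12 for TAM111 at GF, and 0 for both interactions. With no filter it was 2 at HD dry, 9 for TAM111 at HD and 5 for each interaction. With the pseudocount of 0.1 it was 3 for TAM111 at HD and 0 for both interactions. With the compared groups alone, which leaves fewer samples, it was 0 at HD dry, GF dry, GF wet and for both cultivars at GF. It was 1 for the interaction at GF and rose for that at HD. For TAM112 at HD it stayed at 2, but 0 of these were called in the main fit. At HD wet and for TAM111 at HD the count moved less, but few or none of the calls were those of the main fit. Of the named results, 2 kept their call under this setting and 29 did not. Without both intermediate libraries it was 12 at HD dry, 16 at GF dry, 12 at GF wet, 1 for TAM112 at HD, 9 for TAM111 at GF, and 2 and 5 for the interactions at HD and GF. On implied fragments scaled to the library total it was 7 at HD dry, 20 at GF dry, 10 at GF wet, 6 for TAM112 at HD, 34 for TAM111 at GF and 0 for both interactions. For TAM112 at HD it was 1 with median-ratio scaling, 0 with quantile normalization and 0 with the arm end at 100 Mb, and for the interaction at GF it was 1 under each of these 3.

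The study grew pots of both cultivars and treatments in each replicate, so samples with the same replicate number may have been grown together. Over 21 pairs of groups, which mix both stages, their deviations correlated with r between −0.04 and 0.09. With a replicate block 0 members were called for TAM112 and 3 for TAM111 at HD, 43 for TAM112 and 19 for TAM111 at GF, 22 for the mean over conditions and 1 for the interaction at GF. Depth limits the low loci: 12 of the 20 called between the cultivars had a median under 20 implied fragments.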
